A study of Rattus norvegicus with 18 samples.

Results

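Smooth muscle contraction genes, 40 in number, were followed through colitis in the rat colon, and 37 of them could be measured, out of 14217 genes on the array. The list was drawn up by function and by name, not by any measured value, and holds the actins and myosin of the contractile filaments, the proteins that regulate and anchor them, and the receptors, calcium channels and enzymes that switch contraction on and off. Each gene was read by the probe set (the group of short probes against 1 transcript) with the highest mean over the 18 arrays among those annotated to that gene alone. Actc1, Myl6 and Prkg1 were not measured. The 5 probe sets that name Actc1 name Acta2 as well, the 1 probe set for Myl6 names several genes, and 0 were annotated to Prkg1.

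Colitis was induced with trinitrobenzene sulfonic acid (TNBS), which binds to tissue proteins and makes them targets of the immune system, in 12 rats that had 1 enema of 10 mg TNBS dissolved in 50% ethanol. Colons were taken from 3 of these rats each on days 2, 5, 7 and 14, and from 6 healthy rats given saline for which no sampling day is stated. Rats with TNBS were picked for the arrays on their inflammatory markers, among them myeloperoxidase activity, and no group had ethanol alone. Full-thickness colon was homogenised, so muscle, mucosa, nerves and vessels were read together on 1 Affymetrix rat array per rat; the sources used here give no strain, sex or age.

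Smooth muscle contracts when calcium entering through channels, or released from stores after a muscarinic or tachykinin receptor is engaged, binds calmodulin and switches on myosin light chain kinase. Myosin phosphatase reverses this step, and cyclic GMP relaxes the muscle. The transcription factor SRF binds a short element, the CArG box, near many contractile genes. In the colon wall the 2 outer muscle layers carry out propulsion, and altered motility is a known feature of colitis.

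Array medians were 5.03 to 5.07 in the TNBS colons and 4.27 to 4.30 in the control colons as deposited, so the sets of arrays stood apart before any gene was compared. The signal 3 prime minus 5 prime was 0.36 to 0.72 in TNBS and -0.16 to 0.14 in control colons for Gapdh, and 0.85 to 1.43 in TNBS and 1.87 to 2.26 in control colons for beta-actin, so these 2 readings of RNA quality differed in opposite directions. RNA of the TNBS colons was extracted with Trizol per the labels, which name no reagent for the control colons, and these differences cannot be told apart from the treatment. Levels against control are therefore given in log2 units after quantile normalization, where a difference of 1 is a 2-fold difference in signal. "Rose" and "fell" are kept for genes with an adjusted p under 0.05 in limma, in the same direction, both on these values and on the deposited values. On the deposited values the median probe set was 0.59, 0.57, 0.54 and 0.58 higher than control on days 2, 5, 7 and 14, so the condition of both scales is harder to meet for a fall than for a rise. Comparisons between days use the deposited values. Values after a plus-minus sign are standard errors of the fit unless an SD is named, and nothing in the labels says more of the replicates than that they are separate samples.

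Acta1 and the gene of SRF itself carry a CArG box, and Acta2 CArG-like elements, in the 250 bases before the RefSeq start (build GRCr8). These 3 windows were chosen after the values were seen, Acta1 being the contractile gene that rose while Acta2 did not. A link between the marked elements and the levels was not tested. Acta1 lies at chr19:68784195-68784444 on the minus strand, Acta2 at chr1:241172504-241172753 on the minus strand and Srf at chr9:21923826-21924075 on the plus strand. Capitals mark a CArG box, which is CC, then 6 bases that are each A or T, then GG, or a CArG-like element with 1 of those 6 bases G or C; the pattern reads alike on both strands, and no other motif was searched for.
Acta1: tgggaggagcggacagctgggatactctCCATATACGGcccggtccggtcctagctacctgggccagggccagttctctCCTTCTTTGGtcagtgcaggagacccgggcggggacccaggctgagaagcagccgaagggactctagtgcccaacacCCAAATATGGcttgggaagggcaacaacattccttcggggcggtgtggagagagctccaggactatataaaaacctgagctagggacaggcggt
Acta2: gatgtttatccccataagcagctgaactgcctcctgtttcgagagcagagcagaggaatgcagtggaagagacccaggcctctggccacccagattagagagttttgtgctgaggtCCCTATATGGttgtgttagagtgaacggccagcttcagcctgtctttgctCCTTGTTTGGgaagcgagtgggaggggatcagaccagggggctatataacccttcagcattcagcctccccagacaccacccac
Srf: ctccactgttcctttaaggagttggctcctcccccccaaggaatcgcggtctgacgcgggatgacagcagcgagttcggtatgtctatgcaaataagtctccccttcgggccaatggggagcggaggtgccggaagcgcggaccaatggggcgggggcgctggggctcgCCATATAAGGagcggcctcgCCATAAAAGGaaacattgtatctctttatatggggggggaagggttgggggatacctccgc
The Acta1 window holds 1 CArG box, CCAAATATGG, that begins 94 bases before the start, and 2 CArG-like elements that begin 222 and 171 bases before it. In Acta2 the 2 elements, CCCTATATGG at 134 and CCTTGTTTGG at 84 bases before the start, are CArG-like. Srf has 2 CArG boxes, at 81 and 61 bases before its start. RefSeq windows of 300 bases, 250 before and 50 after the start, were matched for 36 of the 40 genes (38 windows), and 3 windows (7.89%) held a CArG box, those of Acta1, Srf and Actc1, against 1.64% of 33469 RefSeq windows. CArG-like elements were in 10.5% of the 38 windows, those of Acta1, Acta2, Actc1 and Gucy1b1, and in 8.1% of all. A match describes letters only, and a window without one says nothing about SRF there; Myh11, Tagln, Myl9 and Lmod1 had no window.

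Day 5 was the day on which most contraction genes were lower. On day 5, 11 of the 37 genes fell and 0 rose, where 1.09% of all probe sets fell and 12.1% rose. Fewer passed on the other days: 4 fell and 1 rose on day 2 (0.522% and 9.13% of all probe sets), 2 fell and 1 rose on day 7 (1.07% and 12.4%), and 3 fell and 0 rose on day 14 (0.135% and 5.61%). Without day 5 replicate 2 the day 5 count was 4, and without day 2 replicate 3 the day 2 count was 1 and the day 7 count was 4. All 4 comparisons share the 6 control colons.

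Abundance matters for these shares, since 18 of the 37 genes have a mean deposited signal of 10 or more and only 732 probe sets do. Among those 732, the share that fell was 3.83%, 6.56%, 6.97% and 0.956% on days 2, 5, 7 and 14, and among the 18 genes 2, 6, 1 and 2 fell. Rises were 15%, 15.4%, 13.7% and 6.42% of the 732 and 0 of the 18 on each day. The day 7 count of 1 in 18 is close to that background, while 6 in 18 on day 5 is 33.3% against 6.56%. On quantile-normalized values alone 9, 19, 8 and 6 of the 37 genes were lower, where 9.87%, 14.5%, 15.9% and 6.09% of all probe sets were, and 1, 0, 1 and 0 were higher. On deposited values alone 11, 5, 10 and 9 were higher, where 82.8%, 80.9%, 80.1% and 86.7% of all probe sets were.

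The median of the 37 genes was -0.34, -0.62, -0.29 and -0.35 relative to control on days 2, 5, 7 and 14, where the median over all probe sets was -0.01, -0.02, -0.04 and -0.02. In number, 31, 34, 29 and 32 of the 37 differences were below 0, as were 52.2%, 53%, 56.1% and 52.9% of all probe sets. On the deposited values 13, 20, 13 and 15 of the 37 were below 0 (4.59%, 6.28%, 6.41% and 1.62% of all), and the median of the 37 was 0.13, -0.10, 0.26 and 0.12, beside the medians of all probe sets given above. All 12 TNBS arrays were below all 6 control arrays in 7 of the 37 genes (3.65% of all probe sets) and above them in 0 (3.49%); as deposited they were below in 1 gene (0.029%) and above in 5 (59.8%). The 7 genes are Myh11, Tagln, Smtn, Csrp1, Tpm1, Synm and Kcnma1. Most of the 37 thus lay below control after quantile normalization, but as deposited most lay above it on days 2, 7 and 14, and on both scales their median was below that of all probe sets. Over the 4 days together, the F test against control called 11 of 37 genes on both scales (22.3% of all probe sets); it does not look at direction, and in 4 of the 11, Kcnmb1, Itpr1, Pde5a and Chrm3, the 2 scales had opposed signs on 3 or 4 of the days. That count was 19 without day 2 replicate 3, and 7 without day 5 replicate 2 or day 7 replicate 2.

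**Figure D1:**
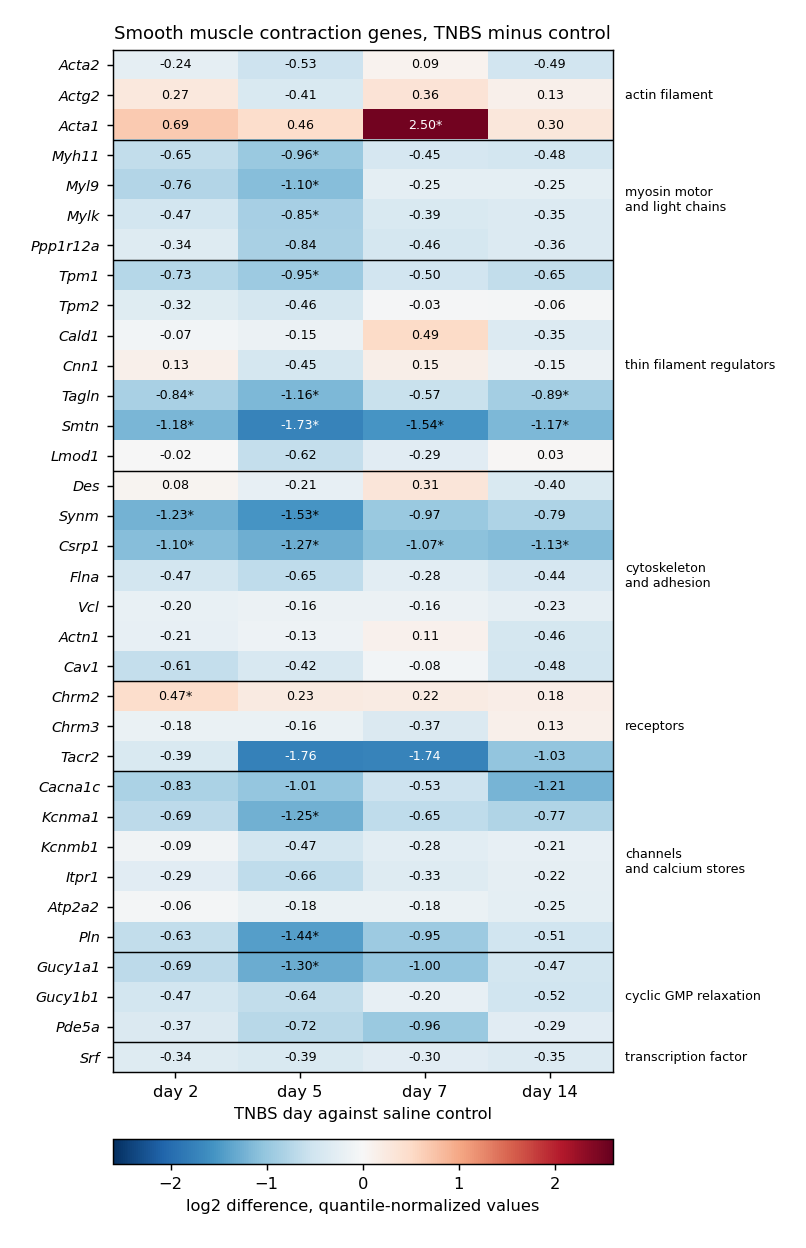
Log2 difference of each TNBS day from saline control for 34 of the 37 measured genes, in rows by role, with days in columns and colour from blue (lower in TNBS) to red (higher); an asterisk marks a call on both scales. Smtn and Csrp1 carry an asterisk on all 4 days, the 11 falls stand in the day 5 column, and the darkest red cell is Acta1 on day 7 at 2.50.

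Actin of smooth muscle itself did not pass on any day. The alpha actin gene Acta2, found in vascular and visceral smooth muscle, had 9.84, 10.77 and 9.96 in day 2 colons, 9.54, 9.75 and 10.40 in day 5 colons, 11.09, 10.74 and 9.72 in day 7 colons and 10.07, 9.50 and 10.25 in day 14 colons, against 9.96 to 10.86 in control colons (median 10.43). The groups overlapped on every day, and the differences were -0.24, -0.53, 0.09 and -0.49, each with an SE of 0.30. For Actg2, the gamma actin of visceral smooth muscle, the values were 12.37, 12.90 and 12.12 in day 2 colons, 11.97, 11.38 and 12.02 in day 5 colons, 12.68, 12.74 and 12.24 in day 7 colons and 12.67, 11.96 and 12.35 in day 14 colons, against 11.92 to 12.55 (median 12.11) in control colons. Its differences were 0.27, -0.41, 0.36 and 0.13 ± 0.21, with an adjusted p of 0.398, 0.167, 0.221 and 0.739 in limma. On deposited values alone Actg2 was higher on days 2, 7 and 14, as were 82.8%, 80.1% and 86.7% of all probe sets. All 3 day 5 arrays of Actg2 were below all 3 day 2 arrays and all 3 day 7 arrays, yet neither step passed (adjusted p = 0.347 and 0.568 in limma).

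Acta1, the alpha actin best known from skeletal muscle, was the exception among the actins. It had 10.91, 10.23 and 8.90 in the day 7 colons, against 7.12 to 7.80 (median 7.63) in control colons, and rose by 2.50 ± 0.54 (limma adjusted p = 0.00293). On the other days single arrays stood high: 10.00 beside 7.30 and 7.29 on day 2, 8.32 and 8.09 beside 7.50 on day 5, and 8.75 beside 7.04 and 7.63 on day 14. The day 7 call held when any 1 array was left out, with differences of 2.06 to 3.07. Day 14 against day 7 was -2.08 ± 0.61 with no overlap of arrays, but the adjusted p in limma was 0.0653. Actin coding sequences are closely alike, the bases that the probes read were not examined here, and so cross-reading of another actin was not tested. Of 11 measured skeletal muscle markers, among them Ckm and Myh1, 0 rose or fell on any day. Over all probe sets 9.13%, 12.1%, 12.4% and 5.61% rose on days 2, 5, 7 and 14, and 0.522%, 1.09%, 1.07% and 0.135% fell. The mean level of the 11 was 4.45 to 4.72 in TNBS and 4.64 to 5.04 in control colons, near the array medians. On quantile-normalized values alone 3 of the 11 were lower on day 5 and 3 on day 7, where 14.5% and 15.9% of all probe sets were. The source of the Acta1 signal was not tested. Tnnt2, cardiac troponin T, was the 1 of 6 cardiac muscle markers that rose on day 7, by 1.02 ± 0.30 (limma adjusted p = 0.0185).

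Of the 4 measured genes of the myosin motor, its kinase and its phosphatase 3 fell on day 5, and 0 passed on the other days. On day 5 1.09% of all probe sets fell, and 6.56% of those with a mean of 10 or more. Myh11, the heavy chain of smooth muscle myosin, had 12.36, 12.39 and 11.60 in day 2 colons, 11.96, 11.17 and 12.27 in day 5 colons, 12.46, 12.36 and 12.13 in day 7 colons and 12.52, 12.01 and 12.32 in day 14 colons, against 12.53 to 12.98 (median 12.75) in control colons. Every TNBS array was thus below every control array, the closest pair being 12.52 on day 14 and 12.53. The difference was -0.96 ± 0.21 on day 5 (limma adjusted p = 0.00373) and -0.65, -0.45 and -0.48 on days 2, 7 and 14, which did not pass on both scales. The second Myh11 probe set differed by 0.02, -1.24, -0.43 and 0.19 on days 2, 5, 7 and 14 and did not pass on any day.

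Myl9, the regulatory light chain that is phosphorylated to start contraction, had 11.02, 10.16 and 10.99 in day 5 colons, against 11.51 to 12.09 (median 11.85) in control colons, and fell by 1.10 ± 0.23 (limma adjusted p = 0.00265). On days 7 and 14 it differed by -0.25 ± 0.23 and -0.25 ± 0.23, within the range of the control arrays for most colons. Mylk, which encodes the kinase of that light chain, had 11.78, 11.06 and 11.93 in day 5 colons, against 12.22 to 12.70 (median 12.41) in control colons, and fell by 0.85 ± 0.18 (limma adjusted p = 0.00235). A second Mylk probe set fell by 2.53 on day 5. Ppp1r12a, the targeting subunit of myosin phosphatase, differed by -0.84 ± 0.24 on day 5, which passed on quantile-normalized values (limma adjusted p = 0.0153) but not as deposited (0.109); 1 of its other 3 probe sets fell by 0.93. The calls of Myh11, Mylk and Myl9 on day 5 were each lost without day 5 replicate 2.

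Proteins that sit along the actin filament were split. Smtn, which encodes smoothelin, a marker of fully contractile smooth muscle, fell on all 4 days. Its levels were 9.09, 9.43 and 8.24 in day 2 colons, 8.67, 7.62 and 8.82 in day 5 colons, 8.74, 8.47 and 8.47 in day 7 colons and 9.10, 8.70 and 8.97 in day 14 colons, against 9.68, 10.03 and 10.78 as the lowest, median and highest control colon. No TNBS array reached the lowest control array. The differences were -1.18, -1.73, -1.54 and -1.17 ± 0.29, with an adjusted p of 0.0112, 0.0006, 0.00118 and 0.0164 in limma. Without day 2 replicate 3 the day 2 difference was -0.84 and no longer passed, and the day 14 call was lost when any 1 of 5 arrays was left out (control replicates 1, 3 and 6, day 14 replicates 2 and 3). The second Smtn probe set fell on days 5 and 7, with differences of -2.09 and -1.61. It did not pass on days 2 and 14, at -0.72 and -0.84.

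Tagln, the gene of the actin-bundling protein transgelin (SM22), fell on days 2, 5 and 14. It had 12.17, 12.64 and 11.77 in day 2 colons, 11.83, 11.66 and 12.14 in day 5 colons, 12.65, 12.53 and 12.20 in day 7 colons and 12.41, 11.88 and 12.13 in day 14 colons, against 12.90 to 13.20 (median 13.02) in control colons. All 12 TNBS arrays lay below the 6 control arrays. The differences were -0.84, -1.16, -0.57 and -0.89 ± 0.17, and the adjusted p in limma was 0.00292, 0.000185, 0.0178 and 0.00283; on day 7 it was 0.0706 on the deposited values. The day 2 call was lost without day 2 replicate 3.

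Tpm1, a tropomyosin, which winds along actin, had 11.71, 11.25 and 11.75 in day 5 colons, against 12.27 to 12.74 (median 12.58) in control colons, and fell by 0.95 ± 0.17 (limma adjusted p = 0.00104). A further 2 Tpm1 probe sets fell on day 5, with differences of -1.13 and -1.47, and the remaining Tpm1 probe sets did not pass. Tpm2, a second tropomyosin, gave -0.32, -0.46, -0.03 and -0.06 ± 0.21, and none passed. Cnn1, calponin, and Cald1, caldesmon, which both restrain the myosin ATPase, did not pass either: Cnn1 differed by 0.13, -0.45, 0.15 and -0.15 ± 0.24 and Cald1 by -0.07, -0.15, 0.49 and -0.35 ± 0.21. Lmod1, leiomodin, which nucleates actin filaments, differed by -0.02, -0.62, -0.29 and 0.03 ± 0.25.

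Of the cytoskeletal and adhesion genes, Csrp1 fell on all 4 days. Csrp1 encodes a LIM-domain protein that binds alpha-actinin and the actin cytoskeleton. The levels were 10.46, 11.18 and 10.49 in day 2 colons, 10.45, 10.35 and 10.82 in day 5 colons, 11.01, 10.60 and 10.62 in day 7 colons and 10.88, 10.45 and 10.72 in day 14 colons, against 11.55, 11.79 and 12.18 as the lowest, median and highest control colon. Its differences were -1.10, -1.27, -1.07 and -1.13 ± 0.18 (limma adjusted p = 0.000835, 0.00018, 0.000542 and 0.00101), and none of the 4 calls was lost when any 1 array was left out. On the deposited values Csrp1 was the 1 gene of the 37 with every TNBS array below every control array, at 10.39 to 11.24 in TNBS and 11.32 to 11.95 in control colons; 0.029% of all probe sets, 9 in number, had this property.

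Synm, synemin, an intermediate filament protein that partners desmin, had 9.33, 10.11 and 8.47 in day 2 colons and 9.33, 7.91 and 9.77 in day 5 colons, against 10.27 to 10.88 (median 10.50) in control colons. It fell on both days, with differences of -1.23 ± 0.37 and -1.53 ± 0.37 (limma adjusted p = 0.0302 and 0.00679). The day 2 call was lost when any 1 of 5 arrays was left out, day 2 replicates 1 and 3 and control replicates 1, 5 and 6, and the day 5 call without day 5 replicate 2. Desmin itself, Des, behaved otherwise: 11.41, 12.43 and 11.53 in day 2 colons, 11.05, 11.67 and 11.77 in day 5 colons, 12.52, 12.04 and 11.50 in day 7 colons and 11.58, 11.03 and 11.31 in day 14 colons lay around the control range of 11.40 to 12.06 (median 11.70). The Des differences were 0.08, -0.21, 0.31 and -0.40 ± 0.25.

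Vcl, vinculin, and Actn1, alpha-actinin, which anchor actin at membrane plaques, differed by at most 0.46 from control and did not pass. Flna, filamin A, which crosslinks actin, was -0.65 ± 0.17 on day 5 (limma adjusted p = 0.0115 on quantile-normalized values, 0.0993 as deposited). Cav1, caveolin-1 of the membrane caveolae, was -0.61 ± 0.18 on day 2 (0.0283 and 0.251). Both stand as not passing on both scales.

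**Figure D2:**
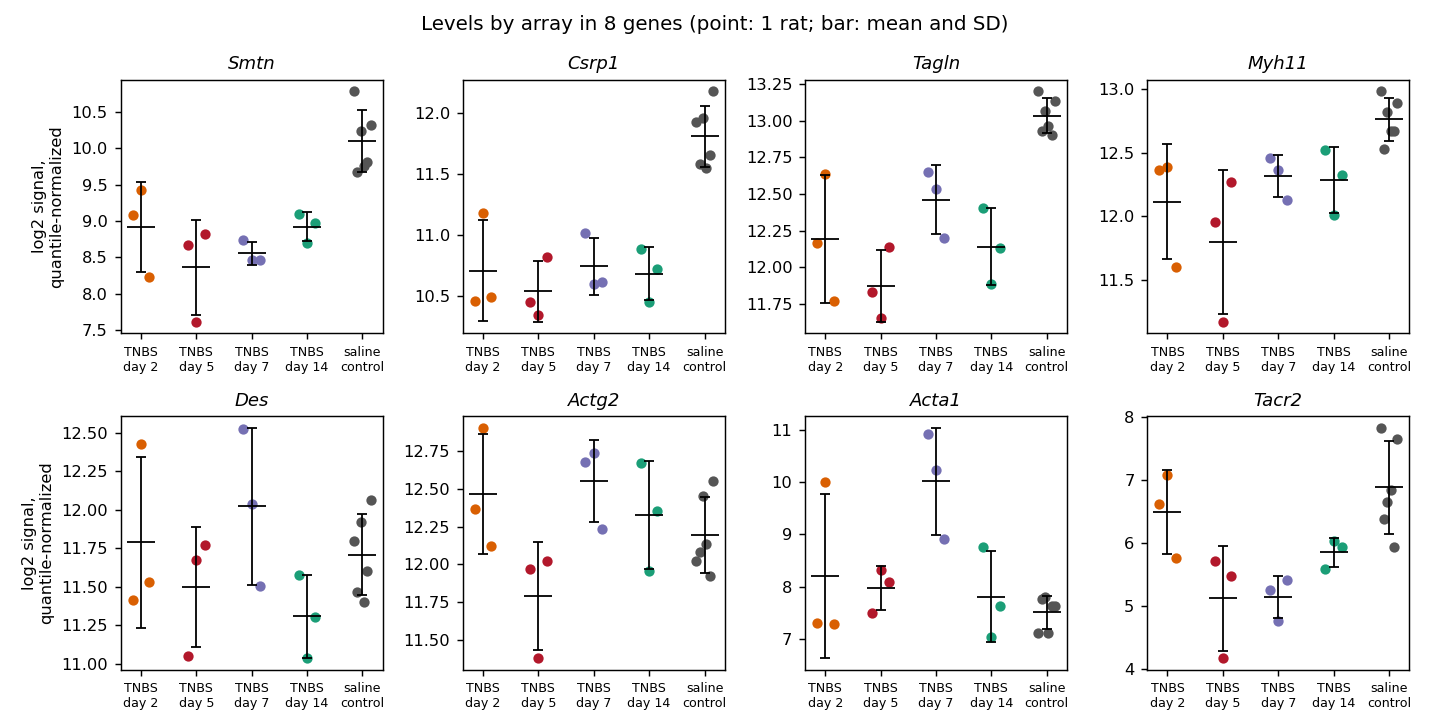
Quantile-normalized log2 signal by array for 8 genes, 1 point per rat, with the mean and SD of each group; TNBS days run from left to right with saline control at the right. The TNBS points of Smtn, Csrp1, Tagln and Myh11 all lie under the control points, those of Des and Actg2 overlap them, Acta1 is highest on day 7, and Tacr2 is lowest on days 5 and 7.

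Differences between genes on the same array do not depend on a shift common to the array. As deposited the shift was not the same at all levels. On day 2 its median was 0.59 over all probe sets and 0.32 over those with a mean of 10 or more, and on day 5 it was 0.57 and 0.22. A difference between 2 genes at unlike levels can therefore keep part of it. The level of such a difference has no meaning, because probe sets differ, but its change between groups does; the pairs were chosen after the values were seen and are given without a test. As deposited, Csrp1 minus Des was -1.11 ± 0.21, -0.92 ± 0.30, -1.24 ± 0.31 and -0.63 ± 0.10 on days 2, 5, 7 and 14 (SD, n = 3), against 0.10 ± 0.03 in control colons (SD, n = 6). The control values ran from 0.05 to 0.14, and no TNBS array came above -0.56. Tagln minus Actg2 was -0.28, 0.08, -0.08 and -0.18 on the 4 days, against 0.96 ± 0.21 in control colons (0.71 to 1.28), again with no overlap. Smtn minus Des was -2.88, -3.01, -3.37 and -2.34, against -1.64 ± 0.30, and here too the highest TNBS array, at -2.27, was below the lowest control array, at -1.82. A further 3 pairs were computed. Myh11 minus Actg2, at -0.63 to 0.24 over the 12 TNBS colons and 0.43 to 1.03 in control colons, did not overlap either. Synm minus Des overlapped on day 14, at -1.66 to -1.41 against -1.67 to -0.84 in control colons. Acta1 minus Actg2 was higher in TNBS colons on average, at -4.23, -3.70, -2.47 and -4.37 on the 4 days, against -4.89 in control colons. It overlapped the control range on days 2 and 14. After quantile normalization it was -4.27, -3.82, -2.54 and -4.52, against -4.68 in control colons. On those values day 5 overlapped the control range too, at -4.47 to -3.06 against -5.02 to -4.29. In the pairs shown the 2 genes thus changed unequally, which is no statement about the muscle genes as a set.

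**Figure D3:**
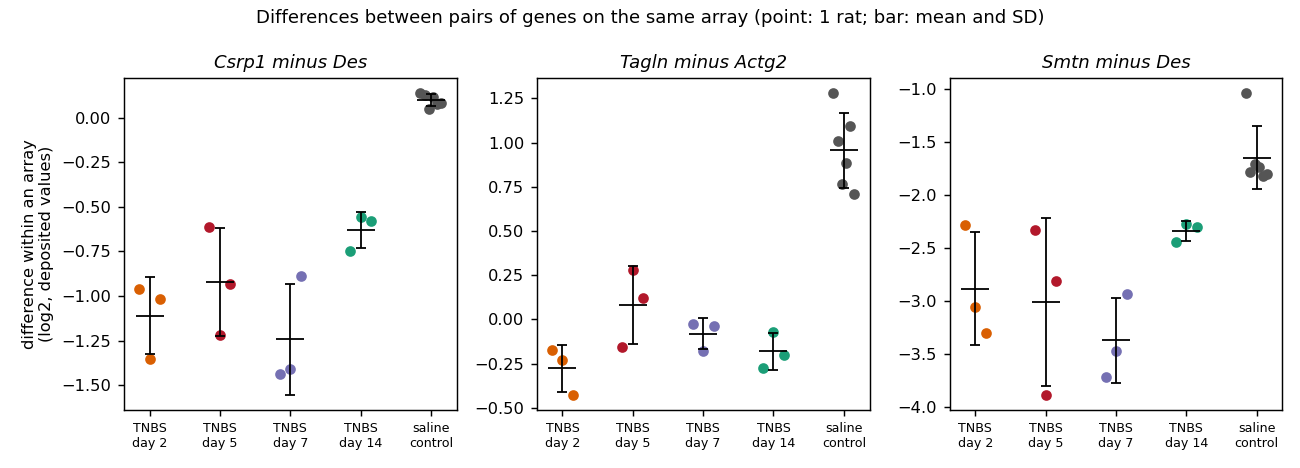
Difference in log2 signal, as deposited, between 2 genes on the same array for 3 pairs, 1 point per rat, with mean and SD. In all 3 panels the 12 TNBS points lie below the 6 control points, and control values of Csrp1 minus Des stay within 0.05 to 0.14.

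Of the 3 receptor genes 1 rose, on day 2, and 0 fell against control. Over all probe sets 9.13% rose on day 2. Chrm2, a muscarinic acetylcholine receptor, had 5.08, 5.09 and 4.91 in day 2 colons, against 4.38 to 4.76 (median 4.55) in control colons, and rose by 0.47 ± 0.10 (limma adjusted p = 0.00475). Chrm3, the muscarinic receptor that couples to calcium release, was -0.18, -0.16, -0.37 and 0.13 ± 0.11 against control, with none passing. As deposited, its day 14 colons had 5.44, 5.18 and 5.42 and its day 7 colons 4.78, 4.75 and 4.92, a rise of 0.53 ± 0.12 from day 7 to day 14 (limma adjusted p = 0.0171). This was the 1 gene of 37 to pass between neighbouring days, where 1.42% of all probe sets rose and 3.08% fell from day 7 to day 14, and the call was lost without day 7 replicate 1, day 14 replicate 1 or day 14 replicate 3. Signals of Chrm2 and Chrm3 lie near the array medians, and the table has no detection call.

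Tacr2, the neurokinin receptor through which tachykinins contract colonic muscle, was the contraction gene with the largest differences that did not pass on both scales. It had 6.62, 7.07 and 5.76 in day 2 colons, 5.72, 4.17 and 5.47 in day 5 colons, 5.25, 4.77 and 5.41 in day 7 colons and 5.59, 6.03 and 5.93 in day 14 colons, against 5.94, 6.74 and 7.82 as the lowest, median and highest control colon. Days 5 and 7 did not overlap the controls. The differences were -0.39, -1.76, -1.74 and -1.03 ± 0.41, with an adjusted p of 0.00532 on day 5 and 0.00513 on day 7 on quantile-normalized values, and of 0.0541 and 0.0579 as deposited, in limma.

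Of 6 channel and calcium store genes 2 fell on day 5 and 0 on the other days. Over all probe sets 1.09% fell on day 5. Kcnma1, the pore of the large-conductance potassium channel that opposes contraction, had 7.25, 6.78 and 7.61 in day 5 colons, against 8.22 to 8.75 (median 8.45) in control colons, and fell by 1.25 ± 0.24 (limma adjusted p = 0.00151). Its other days, at -0.69, -0.65 and -0.77 ± 0.24, did not pass on both scales, although none of the 12 TNBS arrays reached the control range. Pln, phospholamban, the brake on the calcium pump of the store, had 7.39, 6.16 and 7.43 in day 5 colons, against 8.12 to 8.86 (median 8.46) in control colons, and fell by 1.44 ± 0.35 (limma adjusted p = 0.00676). A second Pln probe set fell by 2.25 on day 5 and fell by 1.68 on day 7. The Kcnma1 call was lost without day 5 replicate 1 or 2, and the Pln call when any 1 of 5 arrays was left out (day 5 replicate 2, control replicates 1, 3, 5 and 6).

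Cacna1c, the pore of the L-type calcium channel, had 5.48, 4.61 and 5.40 in day 5 colons and 5.14, 4.74 and 5.00 in day 14 colons, against 5.66 to 6.62 (median 6.21) in control colons. It was lower by quantile-normalized values on days 2, 5 and 14 (-0.83, -1.01 and -1.21 ± 0.24), while the deposited differences of 0.01, -0.15 and -0.38 did not pass. Itpr1, the inositol trisphosphate receptor of the store, was -0.66 ± 0.15 on day 5 but 0.08 as deposited. Atp2a2, the calcium pump itself, differed by -0.06, -0.18, -0.18 and -0.25 ± 0.12, and 1 of its other 4 probe sets rose on day 7, by 0.56. Kcnmb1, the beta subunit of the potassium channel, was at 3.85 to 4.46 in TNBS and 4.25 to 4.46 in control colons, near or below the array median, and did not pass on both scales.

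Relaxation through cyclic GMP was represented by 3 genes. Gucy1a1, the alpha subunit of the soluble guanylate cyclase that responds to nitric oxide, had 6.96, 6.45 and 6.50 in day 5 colons, against 7.56 to 8.43 (median 7.87) in control colons, and fell by 1.30 ± 0.25 (limma adjusted p = 0.00155). This call was lost when any 1 of 6 arrays was left out, control replicates 1, 2 and 6, day 5 replicates 2 and 3 and day 14 replicate 2. Its partner Gucy1b1 was -0.64 ± 0.20 on day 5 and did not pass as deposited. Pde5a, which breaks cyclic GMP down, was -0.72 ± 0.19 on day 5 and -0.96 ± 0.19 on day 7 after quantile normalization, against 0.14 and -0.12 as deposited.

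Srf, the gene of the factor that binds the CArG box, differed by -0.34, -0.39, -0.30 and -0.35 ± 0.16, with adjusted p of 0.0852 or more in limma. In the actin and SRF genes whose windows are printed above, Acta1 rose on day 7 by 2.50, while Acta2 and Srf did not pass on any day. Srf, with 2 CArG boxes, is thus among those that did not pass, and whether the marked elements bear on these levels was not tested.

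Between neighbouring days 1 of the 37 genes, Chrm3, passed in any of the 3 steps. From day 2 to day 5, 32 of the 37 differences were below 0 with a median of -0.30 (all probe sets: -0.02). From day 5 to day 7, 32 were above 0 with a median of 0.37 (all: -0.02), and from day 7 to day 14 the median was 0.01 (all: 0.03), with 18 below and 19 above 0. In limma 0 of 37 passed from day 2 to day 5 and 0 from day 5 to day 7, with 4 and 8 at an unadjusted p under 0.05; over all probe sets 9.16% and 6.28% had such a p, and 0% fell and 0.00966% rose, then 0.00322% fell and 0.0161% rose, after adjustment. An F test among the 4 TNBS days called 0 of the 37 genes (2.34% of all probe sets), with 6 at an unadjusted p under 0.05 (16.4% of all). The dip on day 5 is therefore a pattern of medians and not a difference between days shown for any single gene.

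Single colons differed from one another across the set. Day 2 replicate 2 was the highest of its day in 27 of 37 genes and replicate 3 the lowest in 28. On day 5 replicate 2 was the lowest in 26, on day 7 replicate 1 the highest in 28, and on day 14 replicate 1 the highest in 30 and replicate 2 the lowest in 28. The median of the 37 genes minus their control mean was -0.32, -0.16 and -0.77 in day 2 replicates 1 to 3, -0.53, -0.74 and -0.45 in day 5 colons, -0.09, -0.40 and -0.39 in day 7 colons and -0.17, -0.57 and -0.38 in day 14 colons, against -0.17 to 0.17 in the 6 control colons. Day 2 replicate 2, day 7 replicate 1 and day 14 replicate 1 lay within the control range.

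Markers of other cell types differed over the same days in how many rose or fell. Leukocyte markers, 12 in number, had a mean level of 7.01 to 9.37 on day 2, 8.37 to 9.69 on day 5, 9.12 to 9.61 on day 7 and 6.60 to 8.01 on day 14, against 5.68 to 6.58 in control colons, and 9, 9, 11 and 4 of them rose. Fibroblast markers rose in 6 and 7 of 10 cases on days 5 and 7, endothelial markers in 6 and 6 of 7, and mesothelial markers in 3 and 3 of 4. Enteric neuron markers rose in 1 and 1 of 14 cases, glial markers in 0 and 0 of 4, and epithelial markers in 1 and 0 of 12. Epithelial markers fell in 1 and 2 of the 12 (8.33% and 16.7%), where 1.09% and 1.07% of all probe sets fell. On day 2 the fibroblast marker Fn1, the endothelial marker Esam and the glial marker Sox10 rose. The fibroblast marker Postn and the epithelial marker Slc26a3 fell that day, where 0.522% of all probe sets fell. Of 6 markers of pericytes and vascular smooth muscle 1, 2 and 2 rose on days 2, 5 and 7. Over all probe sets 9.13%, 12.1%, 12.4% and 5.61% rose on days 2, 5, 7 and 14. The mean level of the 8 smooth muscle markers, all of them contraction genes counted above, was 10.64 to 11.28 on day 5 and 10.96 to 11.85 on the other days, against 11.53 to 11.97 in control colons, and none was near the array median. The part of these other cells in the falls was not tested. In homogenised tissue, fewer muscle cells and less RNA of a gene per muscle cell cannot be told apart.

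**Figure D4:**
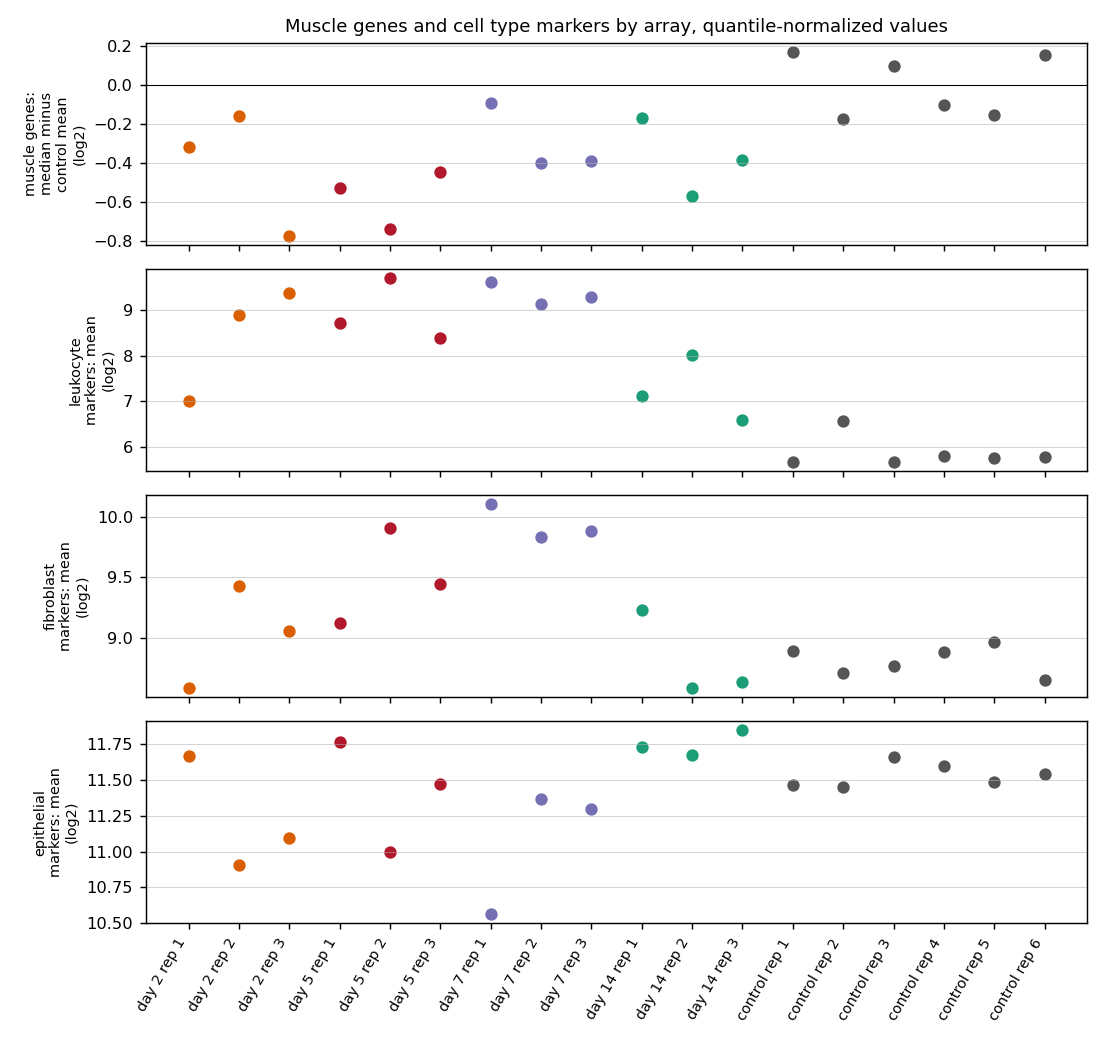
By array, from top to bottom: the median of the 37 contraction genes minus their control mean, and the mean level of 12 leukocyte, 10 fibroblast and 12 epithelial markers, all in log2 after quantile normalization, with TNBS arrays left of the control arrays. The lowest contraction medians, -0.77 and -0.74, are those of day 2 replicate 3 and day 5 replicate 2, and leukocyte means of all TNBS arrays lie above the highest control array at 6.58.

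Contractile and adhesion genes beyond the 40 were both higher and lower. Of 40 measured, 7, 9, 11 and 2 rose and 1, 4, 0 and 0 fell on days 2, 5, 7 and 14. Over all probe sets 9.13%, 12.1%, 12.4% and 5.61% rose, and 0.522%, 1.09%, 1.07% and 0.135% fell. On day 14 the share of rises among these genes, 5%, is below that of all. Their median was -0.10, -0.16, -0.03 and -0.34, beside the medians of all probe sets given above. Myh10, a non-muscle myosin heavy chain, had 6.52, 8.07 and 7.49 in day 5 colons and 8.83, 7.56 and 8.63 in day 7 colons, against 6.04 to 6.38 (median 6.24) in control colons, and rose by 1.14 ± 0.29 and 2.12 ± 0.29 (limma adjusted p = 0.00979 and 0.000107). From day 7 to day 14 it fell by 2.37 ± 0.33 (limma adjusted p = 0.00111). Vim, vimentin, the intermediate filament of mesenchymal cells and leukocytes, rose by 1.12, 1.32 and 1.76 ± 0.30 on days 2, 5 and 7. Zyx, zyxin of focal adhesions, rose by 0.69 and 1.09 ± 0.18 on days 5 and 7.

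A pair of tropomyosins, named after their values were seen, rose too. Tpm3 rose on all 4 days, by 0.72, 1.08, 0.74 and 0.61 ± 0.14, and Tpm4 on days 2, 5 and 7, by 0.68, 1.01 and 1.04 ± 0.18; both are tropomyosins found widely outside muscle. On day 5, then, Tpm1 was 0.95 lower while Tpm3 was 1.08 higher, and Myh11 was 0.96 lower while Myh10 was 1.14 higher. Itga8, an integrin chain of mesenchymal cells, had 4.58, 5.00 and 4.84 in day 7 colons, against 4.07 to 4.63 in control colons; it rose by 0.44 ± 0.11 against control and by 1.06 ± 0.12 from day 5, at signals near the array median.

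The 4 genes of this list that fell did so on day 5, and 1 of them also on day 2. Fhl1, a LIM-domain protein of muscle, fell on days 2 and 5, with differences of -0.83 ± 0.23 and -1.08 ± 0.23 (limma adjusted p = 0.0199 and 0.00281). Named after their values were seen, Nexn (nexilin, an actin-binding protein), Hspb6 and Hspb8 (small heat shock proteins of muscle) fell on day 5, with differences of -1.46 ± 0.27, -1.36 ± 0.35 and -1.40 ± 0.28.

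Few calcium handling and channel genes beyond the 40 passed: of 27 measured, 1, 1, 1 and 0 rose and 0, 1, 0 and 0 fell. Over all probe sets 9.13%, 12.1%, 12.4% and 5.61% rose, and 0.522%, 1.09%, 1.07% and 0.135% fell. The riser was Kcnj8, a subunit of ATP-sensitive potassium channels that also marks pericytes, at 2.35, 1.44 and 1.80 ± 0.47 on days 2, 5 and 7. The gene that fell was Slc8a1, the sodium-calcium exchanger, at -1.34 ± 0.24 on day 5. On quantile-normalized values alone 3, 8, 8 and 0 of the 27 were lower, where 9.87%, 14.5%, 15.9% and 6.09% of all probe sets were. The median of the 27 was -0.22, -0.18, -0.17 and -0.24.

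Among 29 receptors and G protein partners, 3, 5, 5 and 3 rose (10.3%, 17.2%, 17.2% and 10.3%, against the 9.13%, 12.1%, 12.4% and 5.61% of all probe sets). In the same list 0, 1, 1 and 0 fell, where 0.522%, 1.09%, 1.07% and 0.135% of all probe sets did. The median was 0.03, -0.04, -0.01 and -0.01. Adrb3, the adrenergic receptor that relaxes colonic muscle, had 5.11, 4.96 and 4.61 in day 5 colons and 4.85, 5.21 and 4.91 in day 7 colons, against 6.25 to 7.18 (median 6.64) in control colons. It fell on both days, with differences of -1.77 ± 0.19 and -1.67 ± 0.19 (limma adjusted p = 1.69e-05 and 1.97e-05). Rgs2, which damps signalling of Gq-coupled receptors, rose by 1.06 and 1.75 ± 0.27 on days 5 and 7 and fell by 1.46 ± 0.31 from day 7 to day 14. Arhgef1, a guanine nucleotide exchange factor, rose on all 4 days, by 0.71, 0.62, 0.65 and 0.71 ± 0.20; the gene is also strongly expressed in leukocytes.

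Cyclic nucleotide genes, 20 in number, gave 0, 2, 4 and 1 rises and 0, 1, 2 and 0 falls. Over all probe sets 9.13%, 12.1%, 12.4% and 5.61% rose, and 0.522%, 1.09%, 1.07% and 0.135% fell. The median of the 20 was -0.01, -0.08, -0.02 and -0.09. Pde4b, a cyclic AMP phosphodiesterase that leukocytes also express, rose by 1.02 and 2.14 ± 0.32 on days 5 and 7, and Npr1, the atrial natriuretic peptide receptor, by 1.27 and 1.12 ± 0.28. Both fell again from day 7 to day 14, with differences of -1.72 ± 0.35 and -1.18 ± 0.32. Regulators of the muscle programme gave 1, 1, 2 and 1 rises and 0, 0, 1 and 0 falls among 17 measured, beside the same shares of all probe sets. Their median was -0.21, -0.10, -0.10 and -0.18. Klf4, a factor that represses contractile genes in vascular muscle and is also made by colonic epithelium, fell by 1.13 ± 0.27 on day 7 (limma adjusted p = 0.00484). Of 12 epithelial markers 2 fell that day, Slc26a3 and Krt20, a marker of mature epithelium, the latter by 0.98 ± 0.25. Over all probe sets 1.07% fell. The part of the epithelium in the fall of Klf4 was not tested. Interstitial cells of Cajal, the pacemakers of gut muscle, were poorly represented, with Kit below the array medians at a control median of 3.69. Of 5 markers Gja1 alone rose, by 1.43 and 1.88 ± 0.32 on days 5 and 7, and 0 fell. Etv1, a factor of these cells, was lower on quantile-normalized values on all 4 days, at -1.07, -1.29, -0.84 and -1.34 ± 0.21, but not as deposited.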

How the data were processed

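Total RNA of full-thickness colon was read on 18 Affymetrix rat arrays; per the labels, the authors normalized them in Bioconductor with affyPLM, and the deposited table of 31099 probe sets holds values on a logarithmic scale, taken as log2 from their range. The sources used here give neither the package version nor the log base, and do not say whether control and TNBS arrays were normalized in 1 run. Tests used the 31042 probe sets other than the 57 array controls, of which 20826 carry 1 gene symbol, 436 several and 9780 none listed here. RefSeq changed 0 symbols.

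Quantile normalization across the 18 arrays was computed here, and limma 3.58.1 (R 4.3.3) was fitted to all arrays with 1 coefficient for each of the 5 groups, two-sided, with Benjamini-Hochberg adjustment over 31042 probe sets and a threshold of 0.05. Quantile normalization removes a change shared by most genes. The 40 genes, the other gene lists, the cell type markers and the use of both scales were chosen with earlier results of these data known, so patterns seen before are not independent support. Of the 37 measured genes 3 are counted throughout but not reported singly here. The text names the other 37 of the 40, and from each other list up to 4 genes with the smallest p of the F test among TNBS days and the 2 with the highest level; others are said to be chosen after their values were seen, or are named because they make up a count of 5 or fewer. Several probe sets were present for 21 of the 37 genes, and for genes reported singly the others are given if they passed. Other probe sets of those genes that are not given did not pass, so those given are not the whole of the evidence for a gene. Among the 3 genes not reported singly, another probe set rose on day 5.

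The alternatives were each scale alone, median centring, cyclic loess, leaving out the lowest 50% of probe sets, trend and robust empirical Bayes, replicate number as a block, the average of a gene's probe sets, an adjusted p under 0.01, a fit of only the 2 groups compared, and leaving out each array. The background among probe sets with a mean of 10 or more and the differences within an array were added after the data were seen. The procedure was tested on simulated data, and the outcome is not reported here. Precision is limited by the number of arrays, and 0 pairs of arrays were identical.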

Additional observations from a re-analysis of the deposited data

Results flagged for a closer look

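Lmod1 in control replicate 2 was at 6.63, below the 7.16 to 7.33 of the other 5 control colons, a gap large enough against the group's range to single it out. Atp2a2 in control replicate 1 was at 10.67, above the 10.01 to 10.24 of the other 5. The control group of each of the 37 genes was examined in this way and 2 arrays stood out, where chance alone singles out about 1 in 20 groups. Neither of these probe sets passed in any comparison with control; another Atp2a2 probe set rose on day 7, by 0.56.

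Chrm3 differed between TNBS days: the day 14 colons were 0.53 above the day 7 colons in the tested difference of the 2 days. Its signal is close to the array median, and its difference from control was -0.37 on day 7 and 0.13 on day 14 after quantile normalization.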

How the results depend on the processing

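Csrp1 kept its call on all 4 days when any 1 array was left out, as did Tagln on days 5 and 14, Smtn on days 5 and 7, Tpm1 on day 5, Acta1 on day 7 and Chrm2 on day 2. Leaving out 1 array at a time gave 1 to 6 falls on day 2 (1 without day 2 replicate 3), 4 to 12 on day 5 (4 without day 5 replicate 2), 2 to 4 on day 7 (4 without day 2 replicate 3) and 2 to 3 on day 14; rises stayed at 1 on day 2, 0 on day 5 and 0 on day 14, and were 1 to 2 on day 7 (2 without day 7 replicate 3). From day 7 to day 14 it gave 0 to 2 rises (0 without day 7 replicate 1, day 14 replicate 1 or day 14 replicate 3, 2 without day 5 replicate 2) and 0 to 1 falls (1 without day 2 replicate 2 or day 7 replicate 3). The F test against control called 7 to 19 genes and that among TNBS days 0 to 1 (1 without day 2 replicate 1 or 2). On quantile-normalized values alone falls were 9, 19, 8 and 6 on days 2, 5, 7 and 14, and the F test called 19. On deposited values alone rises were 11, 5, 10 and 9. The average of a gene's probe sets gave 2 falls on day 2, 6 on day 5 and 0 rises from day 7 to day 14. An adjusted p under 0.01 gave 2, 7 and 0 for the same counts and 3 for the F test. The calls lost with the average were Smtn and Synm on day 2 and Myh11, Tpm1, Synm, Kcnma1 and Gucy1a1 on day 5. Smtn on day 14 and Chrm3 from day 7 to day 14 were lost with the average too. Without the lowest 50% of probe sets there were 0 rises on day 2, where Chrm2 was not among the probe sets tested, and 1 fall from day 7 to day 14. A fit of only the 2 groups gave 4 falls on day 7 and 0 rises from day 7 to day 14. Cyclic loess gave 2 rises on day 7, those of Acta1 and Actg2. The cause of these shifts was not tested.

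As deposited, 13 differences from control among the genes reported singly had the opposite sign and passed upward. These were Lmod1 0.70, Kcnmb1 0.61, Itpr1 0.40, Atp2a2 0.33, Pde5a 0.47, and Chrm3 0.61 on day 2; Chrm3 0.61 on day 5; Kcnmb1 0.39, Gucy1b1 0.59 and Chrm3 0.40 on day 7; and Kcnmb1 0.45, Itpr1 0.55 and Pde5a 0.58 on day 14. The labels do not say that replicate numbers pair the samples. Deviations of same-numbered arrays correlated above 0.1 in 14 of 30 pairs (-0.31 to 0.47). Arrays of unlike number were not set beside them, so these values cannot decide whether the samples were paired. With the replicate block the F test against control called 3 genes, and falls were 3 on day 2, without Synm, and 10 on day 5, without Synm and Pln and with Ppp1r12a.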
